A study of Rattus norvegicus with 72 samples.

Results

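The genes described here supply DNA synthesis: Rrm1, Rrm2, Tyms, Tk1 and Dut, whose products make deoxynucleotides, and Pcna, which encodes the ring that holds DNA polymerases on their template. They were chosen by symbol, with earlier results of these data known. Each of the 6 symbols matched 1 of the 32545 genes in the count tables: ENSRNOG00000045752 (Rrm1), ENSRNOG00000054286 (Rrm2), ENSRNOG00000037225 (Tyms), ENSRNOG00000047314 (Tk1), ENSRNOG00000007221 (Dut) and ENSRNOG00000021264 (Pcna). In the remaining whole kidney, Rrm2, Tk1 and Rrm1 transcripts were higher after removal of the other kidney than after sham surgery when the 3 times were averaged, by 2.58-fold, 1.75-fold and 1.32-fold. Only Tk1 passed the test in all 24 fits that leave out 1 whole kidney library each. Rrm2 passed it in 18 of them and Rrm1 in 6. Tyms, Dut and Pcna did not pass the test in whole kidney, and none of the 6 genes passed it in microdissected glomeruli or S1 proximal tubules.

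Ribonucleotide reductase turns ribonucleotides into deoxynucleotides and is built from a large subunit, encoded by Rrm1, and a small subunit, encoded by Rrm2 in dividing cells and by Rrm2b in resting ones. Thymidine nucleotides come either from thymidylate synthase (Tyms), which methylates dUMP, or by salvage of thymidine through the cytosolic thymidine kinase (Tk1). The dUTPase encoded by Dut removes dUTP, so that uracil stays out of DNA, and hands its product to Tyms. Several of these genes are known to be transcribed as cells enter S phase, and PCNA staining has long been used to mark proliferating tubule cells in the kidney.

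The rats were adult male Sprague-Dawley animals, and their left kidneys were sampled 24, 48 or 72 h after the right kidney was removed (nephrectomy) or after a sham operation. No other treatment is named in the labels, and both surgeries share the strain, the sex and the times. Each surgery and time gave 4 libraries of dissected glomeruli (the filtering tufts), 4 of dissected S1 segments (the first stretch of proximal tubule) and 4 of whole kidney, 72 libraries in 18 groups. The dissected samples were extracted with Zymo Quick-RNA and pre-amplified with the NuGEN Ovation RNA-seq V2 kit before single-end sequencing. Whole kidneys were extracted with RNeasy and sequenced as pairs from TruSeq Stranded HT or LT libraries, and the labels do not assign a kit to each library. That the 4 libraries of a group come from 4 rats is not stated, so the p-values measure the spread between libraries, which may be technical in part.

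The 70 libraries used held 2.64 to 37.41 M gene counts (M for mega) in glomeruli, 7.88 to 87.37 M in S1 and 10.1 to 55.52 M in whole kidney. The sham 24 h glomerulus and S1 libraries numbered 2 carry each other's markers and were left out. Podocyte markers summed to a median of 16000 CPM (counts scaled to library size) in glomeruli and 36.3 CPM in S1, and proximal tubule markers to 1430 CPM in glomeruli and 14200 CPM in S1. Most of the proximal sum in glomeruli was Lrp2, with a median of 1300 CPM, and the other proximal markers had medians of 4.5 to 22.2 CPM there. Loop of Henle and distal tubule markers summed to 4.55 to 1170 CPM in glomerulus libraries. Among the whole kidney libraries, numbers 3 and 4 of both surgeries at 24 h stood apart, with scaling factors between 0.4516 and 0.6845, and the third of the nephrectomy group had the fewest counts (10.1 M). The biological coefficient of variation was 0.248 in whole kidney, against 0.625 in glomeruli and 0.713 in S1, so that the segments resolve only larger differences. In both segments the second component of the spread within groups, 19.5% of it in glomeruli and 20.1% in S1, put the libraries numbered 3 and 4 on one side of those numbered 1 and 2 in 6 of 6 groups, against 2 of 6 in whole kidney. What the numbers stand for is not given in the labels, and each surgery has both kinds, so effects are also given within each pair of numbers.

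RefSeq promoter windows, 250 bases before to 50 after the start on GRCr8, were found for 5 of the 6 genes (Rrm1, Tyms, Tk1, Dut and Pcna). The windows of both called genes that have one (Rrm1, Tk1) and of 2 that were not called (Tyms, Pcna) are shown here, 5′ to 3′ on the gene's strand, with each E2F core word in capitals on either strand. The words searched were TTCCCGC and TTCCCGG and TTCGCGC and TTCGCGG, and TTGCCGC and TTGCCGG and TTGGCGC and TTGGCGG. E2F factors govern many genes of the G1 to S transition.
Rrm1, chr1:166235654-166235953, plus strand: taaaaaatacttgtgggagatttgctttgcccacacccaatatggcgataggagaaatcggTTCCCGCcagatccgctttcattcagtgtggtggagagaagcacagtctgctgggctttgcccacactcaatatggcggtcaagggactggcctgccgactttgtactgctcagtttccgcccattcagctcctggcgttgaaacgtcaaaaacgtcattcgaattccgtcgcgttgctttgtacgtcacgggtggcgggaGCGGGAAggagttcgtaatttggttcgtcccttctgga
Tk1, chr10:103544728-103545027, minus strand: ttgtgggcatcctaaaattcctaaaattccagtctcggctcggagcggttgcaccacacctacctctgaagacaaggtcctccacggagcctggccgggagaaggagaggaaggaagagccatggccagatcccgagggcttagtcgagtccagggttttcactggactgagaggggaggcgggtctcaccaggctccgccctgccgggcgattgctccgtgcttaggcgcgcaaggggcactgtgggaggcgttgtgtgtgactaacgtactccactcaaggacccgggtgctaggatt
Tyms, chr9:120776034-120776333, minus strand: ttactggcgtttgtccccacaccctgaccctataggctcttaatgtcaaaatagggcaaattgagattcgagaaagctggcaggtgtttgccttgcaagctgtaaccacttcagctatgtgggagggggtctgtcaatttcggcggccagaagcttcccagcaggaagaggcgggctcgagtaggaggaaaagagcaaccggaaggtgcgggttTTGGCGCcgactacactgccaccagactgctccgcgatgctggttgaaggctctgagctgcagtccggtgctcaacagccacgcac
Pcna, chr3:139955771-139956070, minus strand: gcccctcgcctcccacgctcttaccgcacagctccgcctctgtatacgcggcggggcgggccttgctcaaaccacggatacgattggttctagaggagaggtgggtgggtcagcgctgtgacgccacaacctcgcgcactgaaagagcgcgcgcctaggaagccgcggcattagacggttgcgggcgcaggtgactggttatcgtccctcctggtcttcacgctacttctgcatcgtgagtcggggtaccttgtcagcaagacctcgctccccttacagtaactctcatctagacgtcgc

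The Rrm1 window held 2 E2F core words, 1 from -189 to -183 and 1 on the other strand from 12 to 18 (the bases after the start count up from 1). Tyms had 1 such word from -36 to -30, and Tk1 and Pcna had 0. Dut has 2 windows on chromosome 3, and its second held 1 core word from -24 to -18. Such a word was present in 17.4% of all 33469 RefSeq windows of this length, so a match is a description of the letters and no sign of binding. A CCAAT word on either strand, found in 37.5% of all windows, was present in Rrm1 and Pcna, and a GGGCGG word, found in 33.1%, in Rrm1, Tk1, Pcna and the first Dut window.

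Rrm2, the small subunit that limits ribonucleotide reductase in dividing cells, had the largest fold change of the 6 genes in whole kidney. It had 2.33, 1.93, 1.16 and 3.75 CPM in nephrectomy kidneys at 24 h, against 1.12, 1.11, 1.2 and 1.03 CPM in sham kidneys. At 48 h it had 2.13, 1.01, 3.82 and 17.5 CPM after nephrectomy, against 1.35, 1.16, 1.84 and 2.18 CPM after sham surgery. One nephrectomy library, the fourth at 48 h, was far above the other 3, and 1 was below every sham library of that time. At 72 h Rrm2 had 3.05, 2.96, 2.7 and 4.08 CPM in nephrectomy kidneys, against 2.11, 0.577, 2.18 and 1.0 CPM in sham kidneys, with no overlap. Over the 3 times its log2 fold change was 1.37 ± 0.34 (SE, 12 libraries each), with a Benjamini-Hochberg adjusted p of 0.0294 in edgeR's quasi-likelihood test (a gene is called below 0.05), and 11 of 12 nephrectomy libraries lay above the sham mean of their time. The call was kept in 18 of 24 fits that leave out 1 library each. It was lost without nephrectomy library 4 at 24 h or at 72 h, sham library 1 or 2 at 48 h, or sham library 2 or 4 at 72 h, with adjusted p up to 0.0629 and log2 fold changes of 0.91 to 1.49 over all 24 fits. These levels rest on 8 to 422 counts a library. In RNA of a whole organ, more cells of a type and more RNA per cell cannot be told apart.

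The tables also list LOC100359539, described in the files as ribonucleotide reductase M2 polypeptide. Genes were counted from uniquely placed reads, and reads placed at several sites fell in a summary row that names no gene. How many of those fit both Rrm2 and this copy is not given, so the level of Rrm2 is uncertain and may be understated. The copy took 17.6% of the summed counts of the 2 genes in whole kidney, 64.9% in S1 and 63.2% in glomeruli. In whole kidney the copy was also higher after nephrectomy, with a log2 fold change of 1.57 ± 0.41 (edgeR adjusted p = 0.041), on 3 to 107 counts a library, the most in nephrectomy library 4 at 48 h. This call was kept in only 11 of 24 fits that leave out 1 library each, with adjusted p up to 0.0986, and the log2 fold change was 1.09 without that library. It was also lost in 5 of 11 other settings, where the lowest log2 fold change was 0.27 (limma on log2(FPKM + 1), a scale that understates low genes). The 2 genes summed gave 1.40 (adjusted p = 0.0255).

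Rrm1, the large subunit, was called with a smaller difference. At 24 h it had 43.2, 45.1, 45 and 53.7 CPM in nephrectomy kidneys, against 46.3, 25.3, 42.9 and 37.8 CPM in sham kidneys, and these groups overlapped. At 48 h it had 39.3, 34.0, 45.9 and 68.7 CPM after nephrectomy, against 33.2, 30.1, 33.0 and 41.3 CPM after sham surgery. The nephrectomy library that was highest for Rrm2 was highest here too. At 72 h Rrm1 had 44.0, 40.6, 41.7 and 50.5 CPM in nephrectomy kidneys, against 31.7, 26.9, 35.9 and 34.0 CPM in sham kidneys, with all 4 above all 4. The log2 fold change over the 3 times was 0.40 ± 0.11 (adjusted p = 0.0438), and 11 of 12 nephrectomy libraries lay above the sham mean of their time. This call is close to the threshold: it was kept in only 6 of the 24 fits that leave out 1 whole kidney library each, with adjusted p between 0.0194 and 0.0877, with log2 fold changes between 0.32 and 0.44.

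Rrm2b, the small subunit of resting cells and a p53 target, averaged 7.77 ± 2.45, 6.96 ± 1.05 and 6.37 ± 0.161 CPM in nephrectomy kidneys at 24, 48 and 72 h, against 8.81 ± 2.53, 8.53 ± 1.98 and 7.22 ± 0.457 CPM in sham kidneys (SD, n = 4 each). Its log2 fold change over the 3 times was -0.21 ± 0.12 and was not called (adjusted p = 0.361), and 2 of 12 nephrectomy libraries lay above the sham mean. Per length, Rrm2 stood to Rrm2b at a median ratio of 0.402 (range 0.121 to 2.73) in nephrectomy kidneys, against 0.144 (0.0816 to 0.355) in sham kidneys. This ratio is given as a description, and it was not tested. Reads that fit both Rrm2 and its near copy may be missing from it.

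Tk1, the salvage kinase, had the smallest adjusted p of the 6 genes in whole kidney. It had 9.19, 9.19, 10.3 and 13.5 CPM in nephrectomy kidneys at 24 h, against 8.72, 7.25, 7.06 and 7.34 CPM in sham kidneys, with no overlap. At 48 h it had 11.5, 13.2, 17.9 and 43.8 CPM after nephrectomy, against 8.7, 9.79, 10.5 and 13.4 CPM after sham surgery. The fourth nephrectomy library again lay far above the others, and the ranges overlapped. At 72 h Tk1 had 13.9, 15.6, 14.5 and 17.7 CPM in nephrectomy kidneys, against 8.13, 6.16, 9.81 and 8.38 CPM in sham kidneys, and the groups did not overlap. Over the 3 times the log2 fold change was 0.81 ± 0.16 (edgeR adjusted p = 0.0141), with 12 of 12 nephrectomy libraries above the sham mean of their time. The call was kept in 24 of 24 fits that leave out 1 library each, where the log2 fold change lay between 0.60 and 0.87.

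Tyms, which makes thymidylate anew, was not called. In whole kidney it averaged 13.0 ± 2.69 CPM at 24 h, 15.7 ± 2.1 at 48 h and 15.0 ± 1.27 at 72 h after nephrectomy, against 13.2 ± 3.41, 13.4 ± 1.44 and 12.9 ± 0.356 CPM after sham surgery (SD, n = 4 each). At 72 h the nephrectomy libraries had 13.9, 14.4, 15.0 and 16.8 CPM, against 12.9, 13.2, 13.1 and 12.4 CPM in sham libraries. The 72 h groups did not overlap, yet the log2 fold change was only 0.22 ± 0.17 at that time and 0.15 ± 0.10 over the 3 times (adjusted p = 0.445). The interval of the difference over the 3 times, about -0.04 to 0.34 on the log2 scale, excludes a change as large as the one estimated for Tk1. Per length, Tk1 stood to Tyms at a median ratio of 0.677 (0.442 to 1.64) in nephrectomy kidneys, against 0.441 (0.321 to 0.74) in sham kidneys, a description that was not tested.

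Dut, which clears dUTP, was not called in whole kidney. Its libraries ranged from 11.9 to 13.3 CPM at 24 h, 16 to 19.6 at 48 h and 11.8 to 17.8 at 72 h after nephrectomy, against 10.8 to 20.6, 13.0 to 20.7 and 12.0 to 16.4 CPM after sham surgery. The ranges overlapped at every time, and the log2 fold change over the 3 times was -0.00 ± 0.10, with an interval of about -0.20 to 0.20 (adjusted p = 0.996).

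Pcna, the polymerase clamp, had 26.2, 27.5, 23.9 and 33.3 CPM in nephrectomy kidneys at 24 h, against 39.8, 19.5, 29.4 and 30.2 CPM in sham kidneys. At 48 h it had 26.0, 26.9, 27.6 and 47.4 CPM after nephrectomy, against 24.0, 22.8, 21.9 and 28.4 CPM after sham surgery. At 72 h the nephrectomy libraries had 26.3, 23.6, 26.3 and 32.1 CPM, against 20, 20.5, 24.2 and 20.7 CPM in sham libraries. The groups overlapped at each time, at 72 h by a single sham library, and the fourth nephrectomy library at 48 h was the highest of all. The log2 fold change was -0.10 ± 0.19 at 24 h, 0.40 ± 0.19 at 48 h and 0.34 ± 0.19 at 72 h, and 0.21 ± 0.11 over the 3 times (adjusted p = 0.317), so Pcna was not called.

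**Figure D1:**
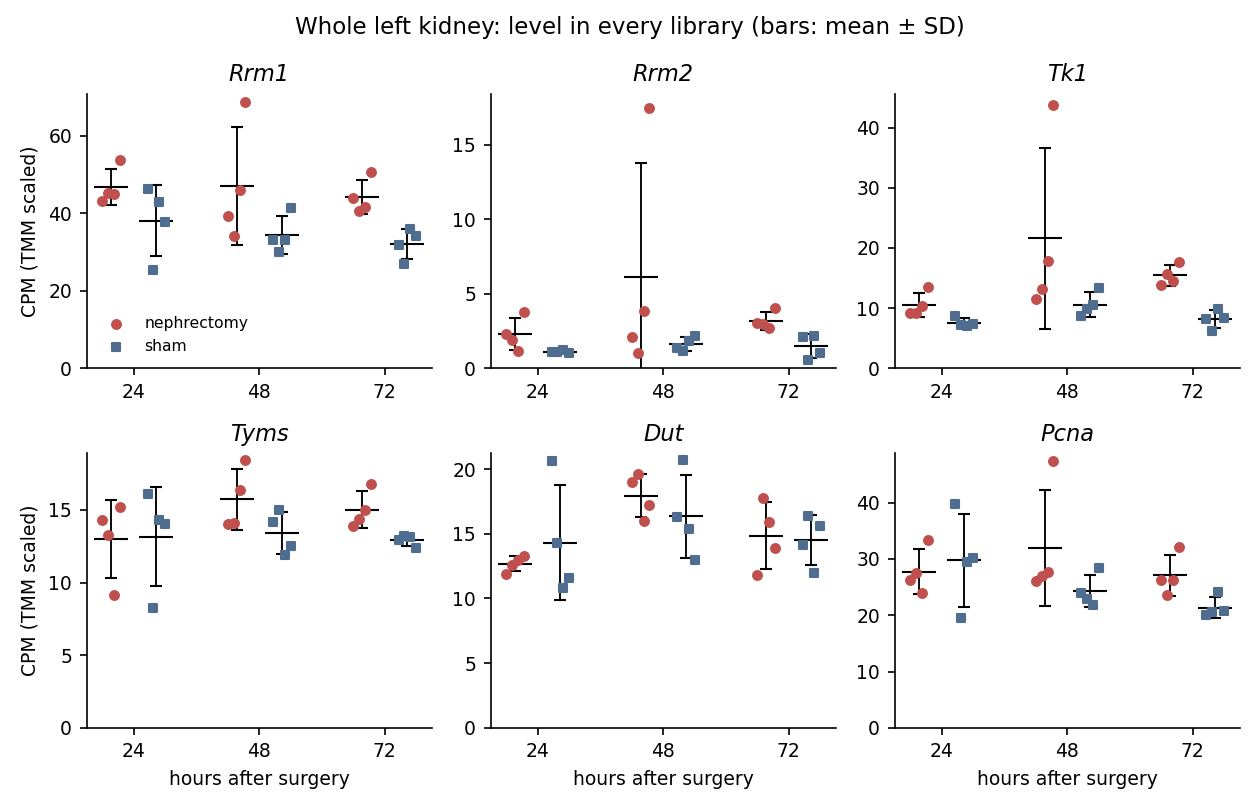
CPM of the 6 genes in each whole kidney library by time, with nephrectomy left of sham at each time; points are libraries and bars are mean ± SD of 4. The Tk1 groups do not overlap at 24 and 72 h, the fourth nephrectomy library at 48 h stands out for Rrm2 (17.5 CPM), Tk1 (43.8 CPM) and Pcna (47.4 CPM), and the lower bar of Rrm2 after nephrectomy at 48 h runs below 0 and is not drawn.

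Across the 3 times, 3 of the 6 genes were called in whole kidney, each of them higher, where 2.86% of 15678 tested genes were called and 1.69% were called higher. The 6 genes were chosen with earlier results of these data known, so this contrast is a description and no independent test of enrichment. With limma on log2(FPKM + 1) no gene of the whole table was called, and the 3 had 0.63 (Tk1, adjusted p = 0.309), 0.75 (Rrm2, 0.414) and 0.38 (Rrm1, 0.604). At single times 0 of the 6 were called by edgeR, with 0.236% of genes called at 24 h, 0% at 48 h and 0.00638% at 72 h, while DESeq2 called Tk1 at 48 h. At an unadjusted p under 0.05 were 0 of the 6 genes at 24 h, Tk1, Rrm2, Rrm1 and Pcna at 48 h and Tk1 and Rrm1 at 72 h. Of all 15678 tested genes, 2020, 1619 and 815 had such a p at 24, 48 and 72 h. By the separate measure of overlap, all nephrectomy libraries lay above all sham libraries for Tk1 at 24 h (1.69% of genes did), for none of the 6 at 48 h (3.43%), and for Tk1, Rrm1, Rrm2 and Tyms at 72 h (5.33%). None of the 6 had all nephrectomy libraries below all sham libraries, as 1.62%, 3.81% and 5.43% of genes had at 24, 48 and 72 h. A difference of the effect between times was not called for any of the 6 genes (adjusted p = 0.999 for each), and 0.0191% of genes had one.

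**Figure D2:**
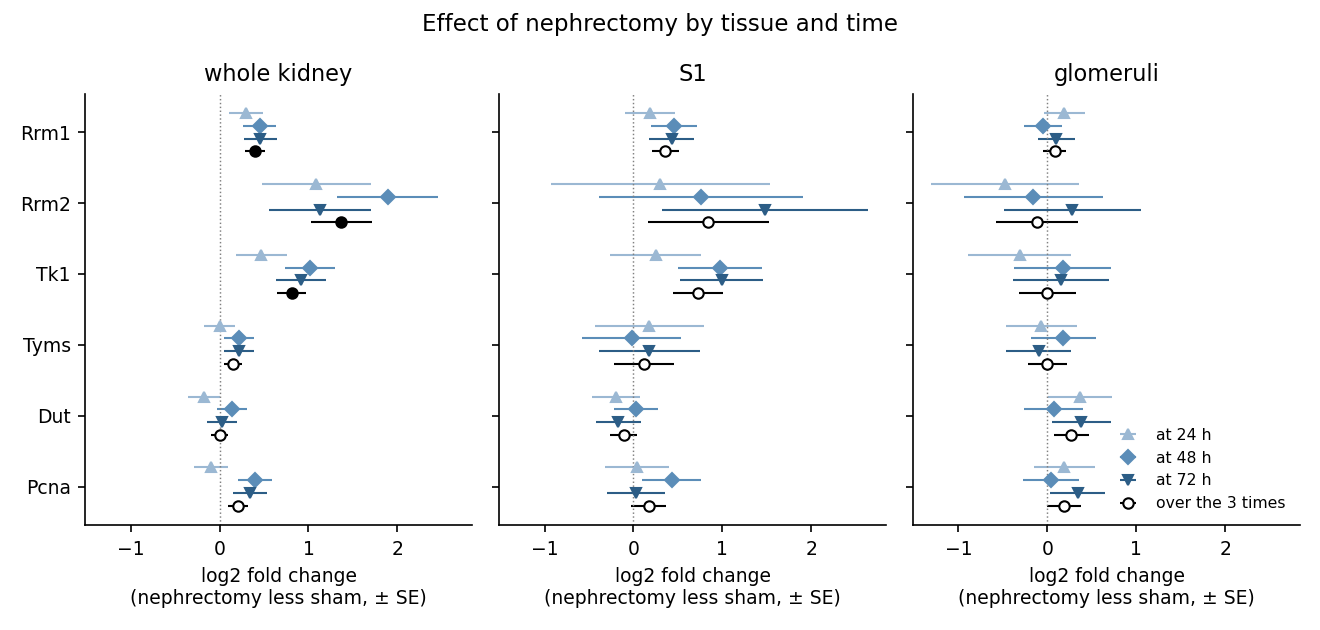
Log2 fold change of nephrectomy over sham with its SE for each gene, at 24, 48 and 72 h and over the 3 times, in each tissue. Filled circles mark an adjusted p under 0.05 over the 3 times, which only Rrm2, Tk1 and Rrm1 in whole kidney reached, and open circles mark values over the 3 times that did not; triangles and diamonds are single times.

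The fourth nephrectomy library at 48 h carried much of the size of the 48 h differences of Rrm2 and Tk1, and a part of the differences over the 3 times. Without it the log2 fold change over the 3 times was 0.91 for Rrm2 (adjusted p = 0.0462), 0.60 for Tk1 (0.00693), 0.32 for Rrm1 (0.0853) and 0.12 for Pcna (0.571). The values for 48 h alone were then 0.52 for Rrm2 and 0.41 for Tk1 (adjusted p = 0.951 for both), against 1.89 and 1.02 with it. Summed markers of tubular injury stood at 58.3 CPM in that library, against 16.9 to 26.4 CPM in sham libraries of 48 h, and 1 sham library at 24 h reached 58.1 CPM; their part in the result was not tested. Without the 24 h libraries numbered 3 and 4, Tk1 had 0.71 (adjusted p = 0.0472), Rrm2 1.31 (0.0737) and Rrm1 0.40 (0.0768). Within the whole kidney libraries numbered 1 and 2, none of the 3 was called, at 0.56 for Tk1 (0.0677), 0.82 for Rrm2 (0.242) and 0.35 for Rrm1 (0.295). Within those numbered 3 and 4, Tk1 had 0.96 (0.0308), Rrm2 1.57 (0.0429) and Rrm1 0.42 (0.0522). This split was chosen after it was seen in the segments. Each of its fits rests on 2 libraries a group, so a lost call does not show that a difference is absent.

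Markers of other cells were set beside these results. Of 10 proximal tubule markers in whole kidney, 1 was lower over the 3 times, the organic anion transporter Slc22a8 (log2 fold change -1.0 ± 0.22, adjusted p = 0.0157), and the median of the list was -0.40. Their summed level was 5420 to 6040 CPM after nephrectomy, against 6800 to 9230 CPM after sham surgery, at 24 h. The sums at 48 h were 5400 to 7390 CPM after nephrectomy, against 5710 to 8040 CPM after sham surgery, and those at 72 h were 6030 to 7060 CPM after nephrectomy, against 6870 to 9100 CPM after sham surgery. Of 8 immune cell markers 0 were called, and the median of the list was -0.06 over the 3 times (-0.28 at 24 h, 0.34 at 48 h and -0.13 at 72 h). Their sums at 24 h were 150 to 223 CPM after nephrectomy, against 221 to 364 CPM after sham surgery. At 48 h these sums were 192 to 279 CPM, against 224 to 270 CPM, and at 72 h 200 to 279 CPM, against 249 to 349 CPM. Of 6 mesangial and smooth muscle markers 1 was higher, the smooth muscle gene Tagln (0.67 ± 0.12, adjusted p = 0.00792), and the median of the list was 0.06. Of all tested genes in whole kidney, 2.86% were called over the 3 times and 1.69% were called higher. Whether these marker levels have a part in the values of the 6 genes was not tested.

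In S1 tubules none of the 6 genes was called at any time or over the 3 times, where edgeR called 0% of 18372 tested genes, 466 had an unadjusted p under 0.05 over the 3 times and DESeq2 called 11, none of the 6 among them. At 24, 48 and 72 h, all nephrectomy libraries lay above all sham libraries for 1.81%, 2.92% and 0.664% of genes and below them for 1.58%, 2.81% and 0.495%, and for 0 of the 6. Effects that differed between times were called for 0.0109% of genes and 0 of the 6. Tk1 had 3.54, 12.3, 7.29 and 7.24 CPM in nephrectomy tubules at 24 h, against 4.8, 8.45 and 5.89 CPM in sham tubules. At 48 h it had 7.94, 7.48, 16.6 and 16.9 CPM after nephrectomy, against 5.09, 5.73, 4.11 and 9.96 CPM after sham surgery. At 72 h it had 11.7, 2.15, 12.6 and 12.7 CPM in nephrectomy tubules, against 5.84, 2.1, 6.74 and 5.2 CPM in sham tubules. All but 1 of the 4 nephrectomy libraries at 72 h lay above every sham library, and the low one, numbered 2, is a library in which genes took only 8.0% of uniquely placed reads. Its proximal tubule markers summed to 5950 CPM and its tubular injury markers to 40.1 CPM, against S1 medians of 14200 and 2.95 CPM. The log2 fold change of Tk1 over the 3 times was 0.73 ± 0.28, with an unadjusted p of 0.0144 and an adjusted p of 1.0, and 10 of 12 nephrectomy libraries lay above the sham mean of their time. Without that low library it was 0.84 (adjusted p = 0.573).

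Rrm1 in S1 had 24.3, 34.5, 18.7 and 26.5 CPM at 24 h, 34.1, 37.5, 25.6 and 35.7 CPM at 48 h, and 37.5, 39.2, 29.7 and 23.2 CPM at 72 h after nephrectomy. After sham surgery it had 30.3, 21.6 and 16.6 CPM at 24 h, 29.5, 26.2, 19.2 and 22.2 CPM at 48 h, and 23.8, 21.4, 27.8 and 23 CPM at 72 h. The groups overlapped at every time, with a log2 fold change over the 3 times of 0.36 ± 0.15 (unadjusted p = 0.0262, adjusted p = 1.0). Rrm2 in S1 rested on 0 to 163 counts a library and had 0.84 ± 0.68, with an interval of about -0.49 to 2.18. Pcna had 39.5, 36.6, 32.0 and 39.4 CPM at 48 h after nephrectomy, against 28.7, 26.6, 20.6 and 33.6 CPM after sham surgery, where only 1 sham library reached the nephrectomy range. It averaged 21.7 ± 7.88 CPM at 24 h and 23.3 ± 11 CPM at 72 h after nephrectomy, against 21.1 ± 10.5 CPM and 22.9 ± 4.87 CPM after sham surgery (SD). Over the 3 times Pcna had 0.17 ± 0.20, Tyms 0.12 ± 0.34 and Dut -0.11 ± 0.15, with adjusted p of 1.0 for each. The nephrectomy library numbered 2 at 72 h, low for Tk1, was the highest for Rrm1 (39.2 CPM). Without that library the values over the 3 times were 0.32 for Rrm1, 0.96 for Rrm2, 0.23 for Pcna, -0.05 for Tyms and -0.11 for Dut. Within the libraries numbered 1 and 2 the values were 0.68 for Tk1, 0.34 for Rrm1, 0.81 for Rrm2, 0.12 for Pcna, 0.05 for Tyms and -0.15 for Dut. Within those numbered 3 and 4 they were 0.80, 0.31, 0.80, 0.14, -0.00 and -0.10 in the same order of genes.

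Tyms in S1 varied with the library number. At 48 h it had 11.6 and 11.3 CPM in the nephrectomy libraries numbered 1 and 2 and 6.2 and 6.26 CPM in those numbered 3 and 4, against 12.8 and 11.3 CPM and 5.11 and 6.48 CPM in the sham libraries of the same numbers. The averages at 48 h were 8.84 ± 3.02 CPM after nephrectomy, against 8.92 ± 3.71 CPM after sham surgery (SD, n = 4 each). At 24 h the averages were 3.79 ± 1.81 CPM (n = 4) after nephrectomy, against 3.35 ± 2.42 CPM (n = 3) after sham surgery. At 72 h they were 4.57 ± 3.39 CPM after nephrectomy, against 3.93 ± 1.54 CPM after sham surgery. The 48 h averages were the highest under both surgeries, and the difference between times within a surgery was not tested.

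In glomeruli 0 of the 6 genes were called at any time or over the 3 times, where edgeR called 0% of 22405 tested genes, 472 had an unadjusted p under 0.05 over the 3 times and DESeq2 called 3, none of the 6 among them. At 24, 48 and 72 h, all nephrectomy libraries lay above all sham libraries for 1.43%, 0.763% and 0.317% of genes and below them for 1.37%, 1.29% and 0.799%, and for 0 of the 6. Effects that differed between times were called for 0.00446% of genes and 0 of the 6. Over the 3 times the log2 fold change was 0.27 ± 0.20 for Dut, 0.19 ± 0.19 for Pcna, 0.08 ± 0.13 for Rrm1, -0.12 ± 0.46 for Rrm2, 0.00 ± 0.32 for Tk1 and 0.00 ± 0.22 for Tyms. The approximate 95% interval ran from -0.17 to 0.33 for Rrm1 and from -0.63 to 0.63 for Tk1. Tk1 had 4.29, 4.46, 4.16 and 13.0 CPM at 24 h, 4.1, 1.14, 7.17 and 11.3 CPM at 48 h, and 13.4, 12.3, 6.28 and 9.15 CPM at 72 h after nephrectomy. After sham surgery it had 5.42, 9.15 and 9.47 CPM at 24 h, 7.48, 2.95, 3.83 and 6.74 CPM at 48 h, and 7.56, 3.74, 15.2 and 10.9 CPM at 72 h. Libraries of 1 group differed widely, and the groups overlapped at each time. Dut had 11.2, 10.5, 9.55 and 9.03 CPM in nephrectomy glomeruli at 24 h, against 9.48, 8.28 and 5.61 CPM in sham glomeruli. For 48 h Dut had 5.51, 5.72, 8.91 and 9.45 CPM after nephrectomy, against 7.78, 7.09, 9.16 and 4.3 CPM after sham surgery, with wide overlap. At 72 h Dut had 12.1, 14.2, 17.1 and 14.4 CPM after nephrectomy, against 13.0, 11.7, 13.2 and 6.16 CPM after sham surgery, and 10 of 12 nephrectomy libraries lay above the sham mean of their time. The 17.1 CPM came from the third nephrectomy library, with 2.64 M gene counts, in which genes took only 2.9% of uniquely placed reads. Without this library the log2 fold change of Dut over the 3 times was 0.24. Tyms averaged 11.7 ± 6.63, 21.9 ± 1.39 and 14.3 ± 5.84 CPM in nephrectomy glomeruli at 24, 48 and 72 h, against 12.2 ± 5.59, 19.2 ± 1.52 and 15.5 ± 4.8 CPM in sham glomeruli (SD, n = 4, and 3 for sham at 24 h). Pcna had 46 to 137.0 CPM over all nephrectomy glomeruli, against 43.4 to 104.0 CPM over all sham glomeruli. Within the libraries numbered 1 and 2 the log2 fold change was -0.02 for Tk1, -0.02 for Dut and 0.07 for Pcna, and within those numbered 3 and 4 it was -0.02, 0.53 and 0.26 in that order.

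**Figure D3:**
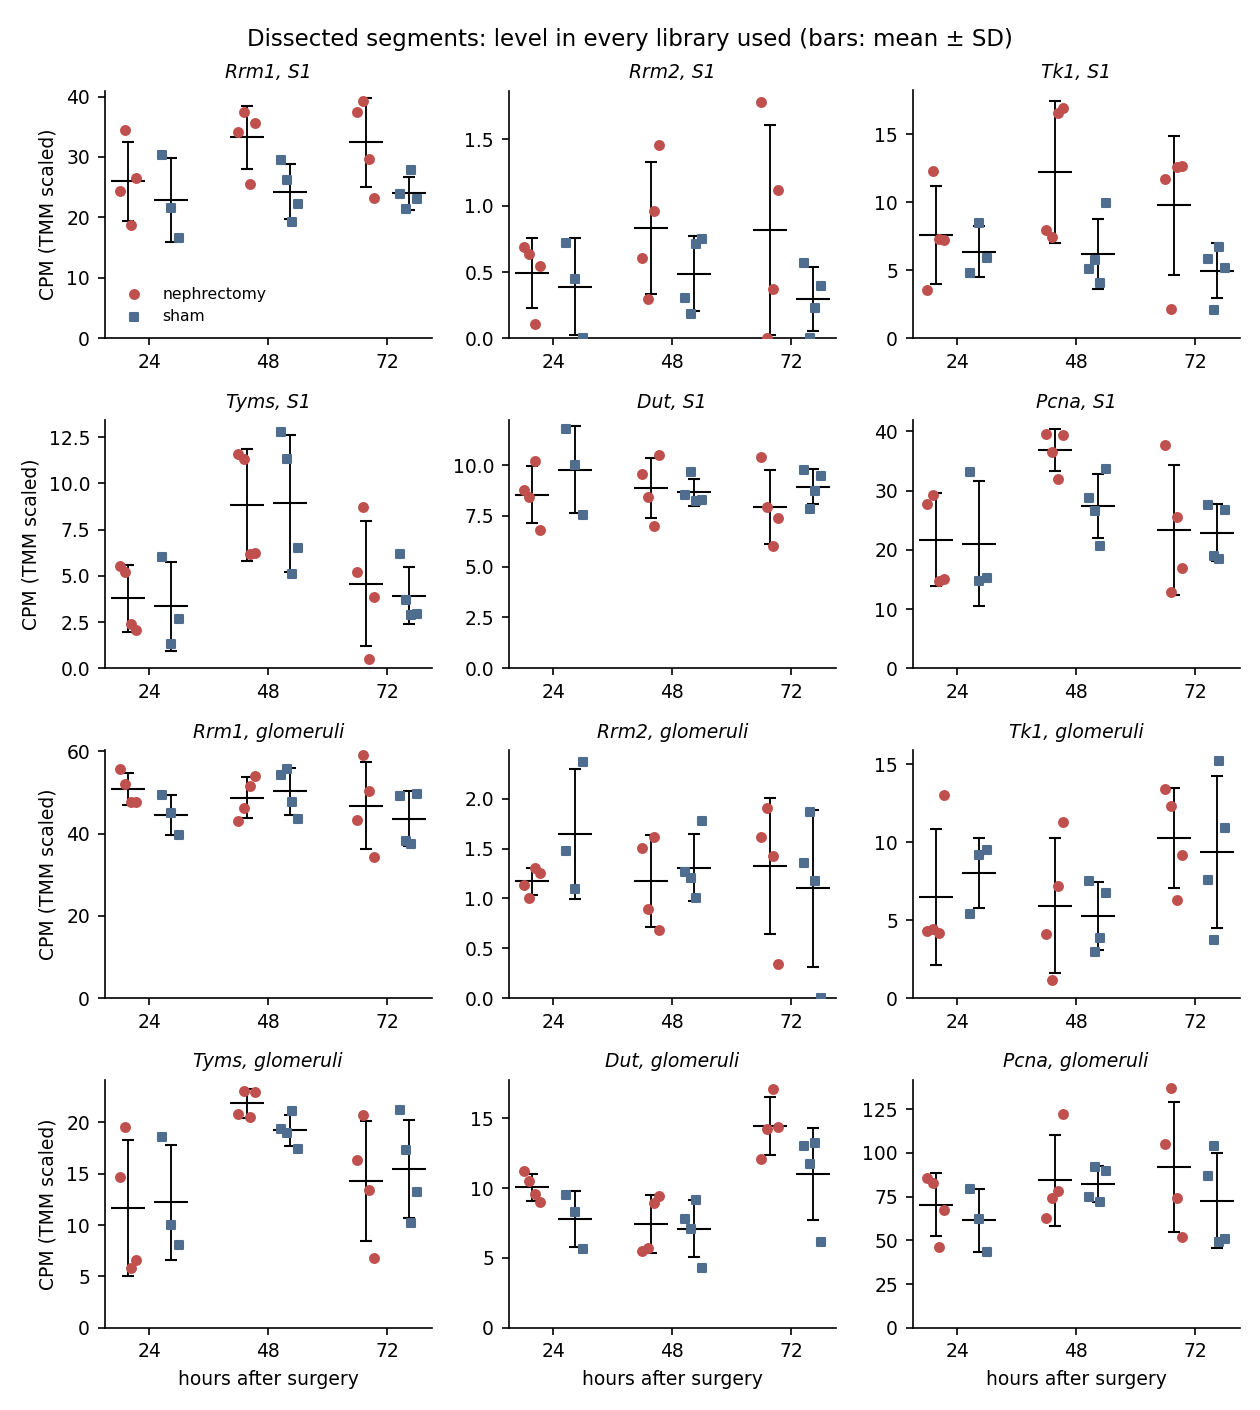
CPM of the 6 genes in each glomerulus and S1 library by time, with nephrectomy left of sham; points are libraries and bars are mean ± SD of 4 (3 for sham at 24 h). All groups overlap; in S1 the nephrectomy libraries of Tk1 at 72 h sit at 11.7 to 12.7 CPM except 1 at 2.15 CPM, against 2.1 to 6.74 CPM in sham libraries.

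The difference between the segments was tested in a joint fit of glomeruli and S1, with no term for the animal. Libraries of both segments carry the same numbers within a surgery and time. Whether libraries of equal number share a rat is not in the labels, and the SEs given here treat them as independent. The effect in glomeruli less that in S1 was -0.71 ± 0.46 for Tk1, -0.95 ± 0.84 for Rrm2, -0.22 ± 0.24 for Rrm1 and 0.43 ± 0.27 for Dut on the log2 scale, and 0 of 24488 genes (0%) were called. No difference between the segments was shown for these genes. Whole kidney values stand in a table with its own library chemistry, and no test was run between it and the segments.

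**Figure D4:**
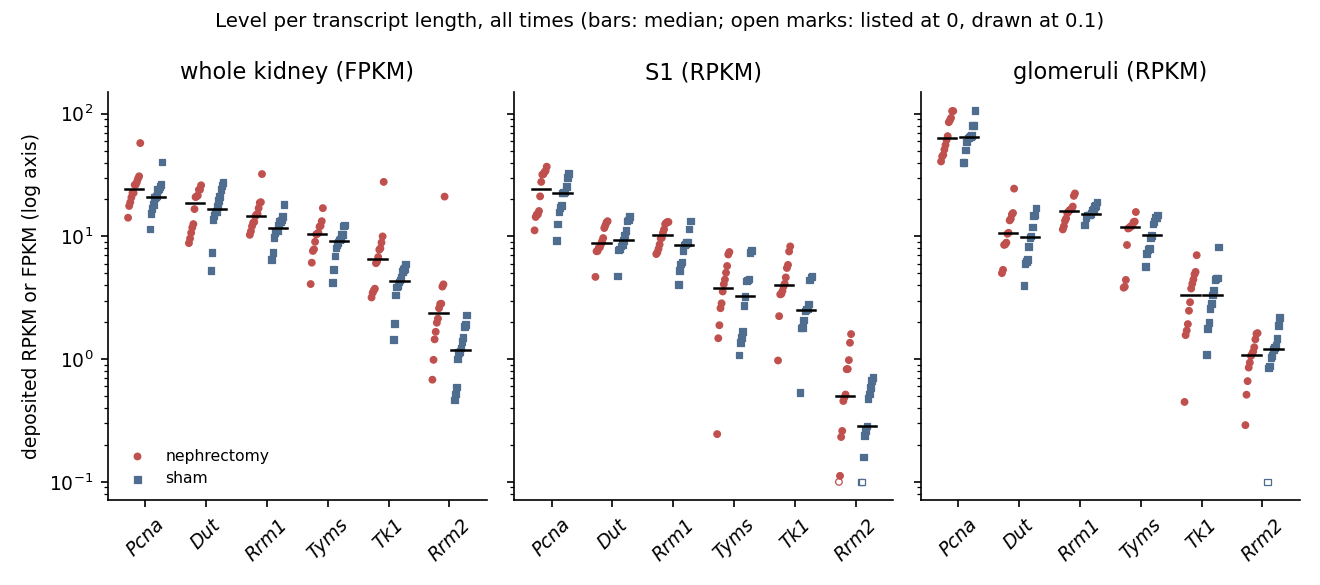
Level per transcript length of each gene in every library (RPKM in glomeruli and S1, FPKM in whole kidney; log axis), with nephrectomy left of sham; values listed at 0 are drawn as open points at 0.1. Pcna is the highest in each tissue, with sham medians of 64.0, 22.6 and 21.1, and Rrm2 the lowest, at 1.2, 0.285 and 1.19 in glomeruli, S1 and whole kidney. The Rrm2 level may be understated, because reads that fit both Rrm2 and its near copy may be missing.

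Levels of different genes were compared per length, on the deposited RPKM and FPKM scales. In whole kidney the medians were Pcna 24.5, Dut 18.8, Rrm1 14.8, Tyms 10.4, Tk1 6.51 and Rrm2 2.37 FPKM after nephrectomy. After sham surgery they were Pcna 21.1, Dut 16.8, Rrm1 11.8, Tyms 9.13, Tk1 4.33 and Rrm2 1.19 FPKM, the same order. The ranges of all neighbours in this order overlapped among the 12 sham libraries. In glomeruli the sham median of Pcna was 64.0 RPKM (39.9 to 106.0), above every library of the next gene, Rrm1, at 15.3 RPKM (12.4 to 19.1). Tyms (10.2), Dut (9.81), Tk1 (3.33) and Rrm2 (1.2) followed with overlapping ranges. In S1 the sham order was Pcna 22.6, Dut 9.27, Rrm1 8.48, Tyms 3.24, Tk1 2.53 and Rrm2 0.285 RPKM, again with overlaps between neighbours. Both segments went through an amplification that whole kidney RNA did not, so these levels were not compared across the tables.

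Other genes of these pathways were taken from lists. Of 20 other deoxynucleotide enzymes 0 were called by edgeR in whole kidney over the 3 times (5 at an unadjusted p under 0.05, 1 by DESeq2), with a median log2 fold change of -0.08, against -0.01 for all genes. Of all 15678 tested genes, 2751 had an unadjusted p under 0.05 over the 3 times. Dck, the cytosolic deoxycytidine kinase, had 0.33 ± 0.17 (adjusted p = 0.314) and Samhd1, which degrades deoxynucleotides, 0.18 ± 0.12 (0.448). The mitochondrial kinases Tk2 and Dguok had -0.18 ± 0.09 (0.307) and -0.21 ± 0.09 (0.226). Of 18 genes of purine and pyrimidine synthesis up to the ribonucleotides 0 were called by edgeR (5 at an unadjusted p under 0.05, 2 by DESeq2), with a median of -0.04. Nearest to the threshold were Impdh1, which makes the precursor of guanine nucleotides, at 0.44 ± 0.12 (0.0508), and Pfas, a purine synthesis enzyme, at 0.40 ± 0.12 (0.061). Prps1, which makes the ribose donor, had -0.22 ± 0.08 (0.149) and Ctps2, a CTP synthase, -0.22 ± 0.08 (0.151).

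The list of clamp loaders, polymerases and other PCNA partners is the largest. Of its 28 tested genes 12 were higher and 0 lower in whole kidney over the 3 times, where 1.69% of all tested genes were higher, with a median log2 fold change of 0.55. The count was 7 to 15 when 1 library was left out (7 without nephrectomy library 4 at 24 h or sham library 2 at 72 h), 1 within the libraries numbered 1 and 2, and 0 by limma. One of the 12, RGD1310335, which RefSeq lists as Cip2a, was put in this list in error, and without it 11 of 27 were higher, with a median of 0.52. This list and the others were chosen with earlier results of these data known, so contrasts with all genes are descriptions only. Pole, the catalytic subunit of a replicative polymerase, had 0.94 ± 0.15 (adjusted p = 0.00624) and Polh, a translesion polymerase, 0.36 ± 0.07 (0.0125). Dscc1, part of an alternative clamp loader, had 1.03 ± 0.20 (0.0114), and Uhrf1, which carries DNA methylation through replication, 1.59 ± 0.31 (0.0114). So several genes whose products work on the PCNA ring passed the test where Pcna itself, at 0.21 ± 0.11, did not; the difference between them and Pcna was not tested. The cycling genes Mki67 (1.15), Top2a (1.32), Mcm6 (1.04), Ccne1 (1.40) and E2f1 (1.12) were all called higher, 5 of 5. Of 9 p53 targets 0 were called by edgeR (2 at an unadjusted p under 0.05, 1 by DESeq2), with a median of 0.02. Such a p was reached by 2751 of all 15678 tested genes. Cdkn1a, the CDK inhibitor p21, had 0.82 ± 0.23 (0.0611), Mdm2 -0.19 ± 0.07 (0.129) and Gadd45a -0.21 ± 0.14 (0.455).

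In S1 0 genes of these lists were called by edgeR, and 1 (Mki67) by DESeq2. The median log2 fold changes were -0.06 for other deoxynucleotide enzymes, -0.07 for nucleotide synthesis, 0.98 for the cycling genes and 0.03 for p53 targets, with 0, 0, 2 and 0 genes at an unadjusted p under 0.05. Such a p was reached by 4 of 28 PCNA partners, the gene listed in error among them, and by 466 of all 18372 tested genes. The PCNA partners had a median of 0.26 (0.25 without the gene listed in error), against 0.03 for all genes, with Pole at 0.96 (unadjusted p = 0.00727), Atad5, which takes the clamp off DNA, at 0.85 (0.0103) and Dtl, which marks proteins on the clamp for breakdown, at 1.34 (0.0352), and adjusted p of 1.0 for each. Without the nephrectomy library numbered 2 at 72 h these were 0.44 for Pole, 0.36 for Atad5 and 0.58 for Dtl. The cycling genes were then at 1.04 (Mki67), 0.96 (Top2a), 0.64 (Mcm6), 0.27 (Ccne1) and 0.19 (E2f1). In glomeruli the PCNA partners had a median of -0.05 (-0.06 without the gene listed in error), against -0.00 for all genes. The other lists had 0.05 (deoxynucleotide enzymes), 0.12 (nucleotide synthesis), 0.24 (cycling) and 0.11 (p53 targets), and 0 genes were called by edgeR or DESeq2, with 2 p53 targets at an unadjusted p under 0.05. In glomeruli 472 of all 22405 tested genes had such a p.

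Across the 24 whole kidney libraries the genes varied together to different degrees, a description that includes the surgery and the shared depth of each library. Rrm2 and Tk1 had a Pearson r of 0.90 (Spearman 0.80), or 0.76 without the 2 farthest libraries. Rrm1 and Pcna had 0.85 (0.82; 0.77), while Dut had values between -0.16 and 0.27 with the other 5. In S1 Rrm2 and Tk1 had 0.66 (0.52; 0.63) over 23 libraries, and Tyms and Tk1 had -0.19 (-0.10; -0.27). Most alike to the mean of the 6 genes in whole kidney, of 9322 genes with at least 5 CPM, were Kif23 (r 0.951, rho 0.902), Hist1h1a (0.948, 0.942), Hist1h2ah (0.926, 0.812), Top2a (0.916, 0.837) and Mad2l1 (0.912, 0.797), whose products act in cytokinesis, chromatin packing, DNA untangling and the spindle checkpoint. Without the 2 farthest libraries their r lay between 0.815 and 0.943. In S1 the leading genes were Pigk, Pgam1, Exosc4, Ppif and Impa2 (r 0.799 to 0.81) and in glomeruli they included Ly86, Pno1, Bora and Coq3 (r 0.683 to 0.777), each over 23 libraries.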

How the data were processed

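Read counts per gene were deposited as whole numbers, beside RPKM (segments) and FPKM (whole kidney) values, per the file headers. Trimmomatic 0.32, STAR 2.4.0.1, SAMtools and HTSeq are named in the submitters' processing notes. The genome build, annotation and use of strand are not named there. The 5 HTSeq summary rows, which name no gene, were left out of totals and tests; depth is given as gene counts per library.

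Counts of each tissue were fitted in edgeR 4.0.16 (R 4.3.3) with a mean per group of surgery and time and TMM factors, after a filter on low counts (filterByExpr, minimum count 10). The quasi-likelihood test was run for nephrectomy against sham at single times and averaged over the 3, with Benjamini-Hochberg adjustment over all genes tested and a threshold of 0.05. SEs were derived as the absolute log2 fold change over the root of the F statistic. CPM were computed from the deposited counts with TMM factors, and log2 CPM for correlations used a prior count of 2. Alternatives were RLE factors, no filter, DESeq2 1.42.0, limma 3.58.1 on log2 of deposited RPKM or FPKM, a number block, and fewer or more libraries. The outcome of a run of the fit on simulated data is not reported here, and no conclusion rests on it. Deviations of same-numbered libraries of the 2 surgeries had r over 0.1 in 2 of 11, 5 of 11 and 6 of 12 pairs in glomeruli, S1 and whole kidney (every pair only at 72 h in whole kidney, 0.12 to 0.295), and numbers were treated as pairs only in an alternative fit.

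The 6 members and the gene lists were chosen with earlier results of these data known. Named genes were the members, the other enzymes Rrm2b, Tk2, Dck, Dguok and Samhd1, the cycling genes, up to 4 genes with the smallest p of each further list, and the 5 genes most alike, 1 of which in glomeruli is not reported here. The near copy of Rrm2, the cell type markers called, Mthfd1 and Dtymk were named after their values were seen.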

Additional observations from a re-analysis of the deposited data

Results flagged for a closer look

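Of 96 groups of 4 libraries tested over the 6 genes, 6 held a library far from the other 3 by Dixon's gap-to-range test. The nominal rate of that test is about 1 in 20, so the count lies near it. That rate presumes independent values with a normal spread, while these genes share libraries. The 6 are listed as a description. In whole kidney the fourth nephrectomy library at 48 h was far above the others for Rrm2 (17.5 CPM, against 1.01 to 3.82) and Pcna (47.4 CPM, against 26.0 to 27.6). Among sham kidneys, Tk1 stood high in the first library at 24 h (8.72 CPM, against 7.06 to 7.34) and Pcna in the third at 72 h (24.2 CPM, against 20 to 20.7). In glomeruli Tk1 stood high in the fourth nephrectomy library at 24 h (13.0 CPM, against 4.16 to 4.46). In S1 Tk1 stood low in the second nephrectomy library at 72 h (2.15 CPM, against 11.7 to 12.7).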

How the results depend on the processing

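Calls over the 3 times in whole kidney depended on the setting. Of the 6 genes 3 were called, and 0 by limma on log2(FPKM + 1) or log2(FPKM + 0.1), 1 (Tk1) without the 24 h libraries numbered 3 and 4 or over 48 and 72 h only, 0 within the libraries numbered 1 and 2, and 1 to 3 without 1 library each; without the filter on low counts Rrm1 missed the threshold (adjusted p = 0.0527). At 48 h 0 were called, 1 (Tk1) by DESeq2, and 0 to 2 without 1 library each, where the exception is the fit without nephrectomy replicate 2, with Rrm2 and Tk1. The causes were not tested.

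With the replicate number as a block, Rrm2 had 1.14, Tk1 0.74 and Rrm1 0.40 over the 3 times in whole kidney and all 3 were called, and at 72 h, where every pair had r over 0.1, Tk1 had 0.94 (edgeR adjusted p = 0.236), Rrm2 1.26 (0.656) and Rrm1 0.46 (0.507), none called; values that turned round were Rrm2 (0.02), Tyms (-0.15) and Tk1 (-0.05) in glomeruli, Tyms in S1 (-0.02), Tyms at 24 h (0.01) and Dut (0.01) in whole kidney, none of them called either way. Other values near 0 that turned round were, in glomeruli, Rrm1 (-0.00 and -0.00 by limma, -0.08 with the left-out sham library), Rrm2 (0.07 with its copy), Tyms (-0.10 and -0.12 by limma, -0.07 with that library, -0.11 with a term for the numbers, -0.19 within numbers 3 and 4), Tk1 (-0.01 with RLE factors, DESeq2 or the term, -0.10 and -0.18 by limma, -0.19 with that library, -0.02 within either pair of numbers) and Dut (-0.10 with that library, -0.02 within numbers 1 and 2). In S1 it was Tyms (-0.00 within numbers 3 and 4). In whole kidney they were Tyms at 24 h (0.00 by DESeq2 or with the term, 0.19 without the libraries numbered 3 and 4, 0.18 within numbers 1 and 2) and at 48 h (-0.06 within numbers 1 and 2), and Dut at 24 h (0.22 within numbers 3 and 4), at 72 h (-0.04 by limma and within numbers 1 and 2) and over the 3 times (0.02 and 0.03 by limma, 0.08 over 48 and 72 h, 0.01 with the term, 0.18 within numbers 3 and 4).

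Leaving out 1 library each, ranges that crossed 0 were -0.24 to 0.05 for Rrm2, -0.12 to 0.13 for Tyms and -0.19 to 0.12 for Tk1 in glomeruli and -0.05 to 0.36 for Tyms in S1. In whole kidney they were, at 24 h, -0.17 to 0.12 for Tyms, -0.29 to 0.05 for Dut and -0.26 to 0.08 for Pcna, and for Dut -0.07 to 0.13 at 72 h and -0.04 to 0.07 over the 3 times.

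List counts in whole kidney moved too. Other deoxynucleotide enzymes went to 1 called under DESeq2, without the 24 h libraries numbered 3 and 4 and with the term (Mthfd1), to 1 within numbers 3 and 4 (Dtymk), and to 0 to 2 without 1 library each. Nucleotide synthesis went to 2 under DESeq2 (Impdh1 and Pfas), to 1 in 4 other settings, and to 0 to 5. PCNA partners went to 0 by limma, 6 over 48 and 72 h, 1 (Pole) within numbers 1 and 2, and 7 to 15. The cycling genes went to 0 by limma and 2 (Mcm6 and Mki67) within numbers 1 and 2, and in S1 to 1 (Mki67) by DESeq2. The p53 targets went to 1 (Cdkn1a) under DESeq2, with the term and within numbers 3 and 4, and to 0 to 2. Over all genes in whole kidney, 448 calls became 865 by DESeq2, 785 without the 24 h libraries numbered 3 and 4, 154 over 48 and 72 h, 687 with the term, 73 within numbers 1 and 2, 1090 within numbers 3 and 4 and 0 by limma; in S1 at 72 h 0 became 744 by DESeq2. The number splits, the copy and the list settings were chosen after seeing the data.

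Precision is limited by 4 libraries a group, by few Rrm2 counts in the segments (0 to 163) and by the unstated number of reads that fit both Rrm2 and its copy.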

Other observations

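The 2 sham 24 h libraries that were left out, both numbered 2, gave the following deposited values. The library labelled glomeruli had Pcna at 20.3 RPKM, Rrm1 at 10.1, Dut at 12.9, Tyms at 3.28, Tk1 at 2.65 and Rrm2 at 0.18 RPKM. The library labelled S1 had Pcna at 85.5 RPKM, Rrm1 at 19.5, Dut at 11.6, Tyms at 10, Tk1 at 3.18 and Rrm2 at 0.805 RPKM. The Pcna value of the first lies within the range of sham S1 libraries (9.29 to 32.7 RPKM) and below that of sham glomeruli (39.9 to 106.0), and the second lies within the glomerulus range.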
